A study of Mus musculus with 12 samples.

Results

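The genes described here encode the factors that start and elongate protein synthesis on cytosolic ribosomes, together with the kinases, inhibitors and methyltransferases that carry their names. They were taken as every probe set with a single gene symbol beginning with Eif1 to Eif6, Eef1 or Eef2, without pseudogene symbols, and the brightest probe set was kept for each gene. This gave 61 of the 19937 genes with such a probe set. Of the 61, 58 were bright enough to be tested and 3 were not, namely Eef1akmt3, Eif4a3l1 and Eif5a2, whose array values lay between 60.5 and 85.6. No tested gene passed the brightness limit through a single diet, since the lowest geometric mean of any of the 58 in either diet was 98.8, above the limit of 85.6. Eif1, Eif2s1, Eif3g, Eif4g1 and Eef1g were not analysed here.

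The RNA came from small intestine of wild-type male FVB mice labelled as aged 8 weeks, and was hybridised to Affymetrix whole-transcript arrays, 1 sample per array. The diets were given for 8 weeks. With both at 8 weeks, it is unclear whether the labelled age is that at the start of feeding or at dissection. In the diet of 6 mice, polyunsaturated fatty acids were low relative to saturated ones (low P/S), and the other 6 mice had a control high-fat diet. The control is thus itself a high-fat diet, and no other diet is among the samples used here. The segment of intestine, feeding before dissection and scan batches are not given in the labels, and the design text calls the arrays biological replicates, so p-values measure the spread between these arrays.

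In translation initiation, eIF2 brings the initiator tRNA to the small ribosomal subunit, eIF3 holds the factors together there, and eIF4F recruits the capped mRNA and unwinds it. eIF1A and eIF5 act in recognising the start codon, and eIF5B then joins the large subunit. eIF2 leaves as a GDP-bound form that eIF2B recharges. Stress kinases that phosphorylate eIF2 turn it into an inhibitor of eIF2B, which lowers initiation on most mRNAs. In elongation, eEF1A delivers aminoacyl-tRNAs, eEF2 moves the ribosome along, and eIF5A, which carries the modified residue hypusine, helps at stalling sequences. The epithelium of the small intestine renews itself continuously from crypt cells and has a high demand for protein synthesis.

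Most of these genes gave higher values on the low P/S diet. Values are deposited array intensities, log2 differences are taken as low P/S minus control, ± is limma's standard error with 6 arrays per diet, and a gene passes at a Benjamini-Hochberg adjusted p under 0.05 over all genes tested. Of the 58 genes, 28 rose (48.3%), 2 fell (3.45%) and 28 did not pass. Of all 11962 genes tested, 25.7% passed, with 17.8% that rose and 7.87% that fell. The median difference was 0.19 over the 58 genes and 0.02 over all genes tested. Differences were positive in 49 of the 58 genes, beside 6672 of all 11962 genes tested. Of the 49, 7 turned negative after quantile normalization. In 13 genes (22.4%) the lowest low P/S array lay above the highest control array, which held for 6.86% of all genes tested. The changes were small: the largest rise was 1.39-fold and the larger fall 1.18-fold. How the authors scaled the arrays is not given, and after quantile normalization the median over the 58 genes was 0.09 with 24 rises and 2 falls, while 14.8% of all genes rose and 12.9% fell. Small differences shared by many genes therefore depend on the scaling, and precision is limited by how many arrays there are.

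**Figure D1:**
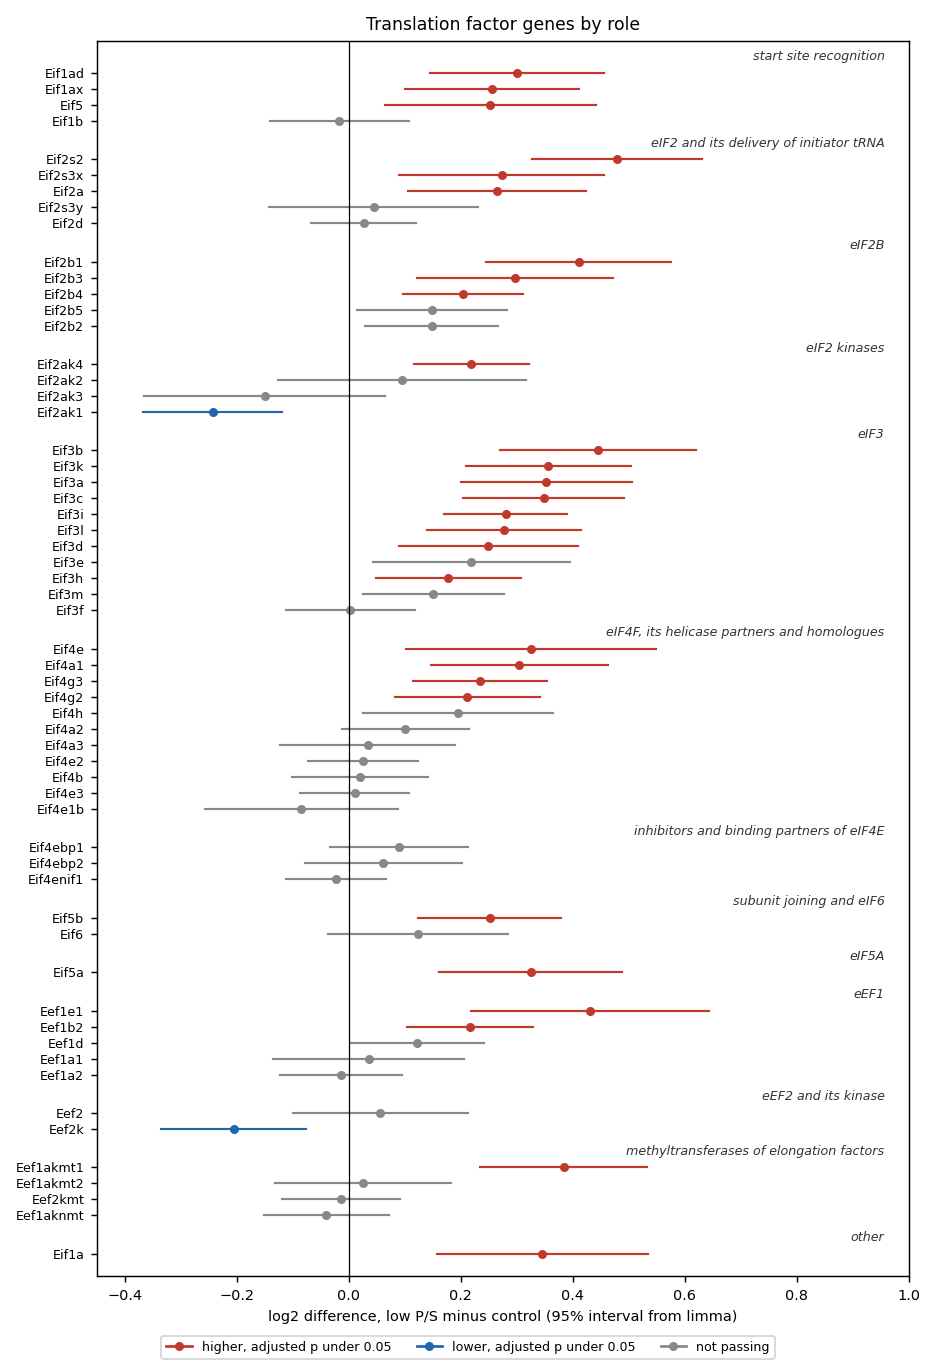
Log2 difference between the diets (low P/S minus control, x axis) for the 58 tested translation factor genes, grouped by role, with 95% intervals from limma (6 arrays per diet). The 28 genes in red rose, the 2 genes in blue (Eif2ak1 and Eef2k) fell, and the 28 grey genes did not pass.

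**Figure D2:**
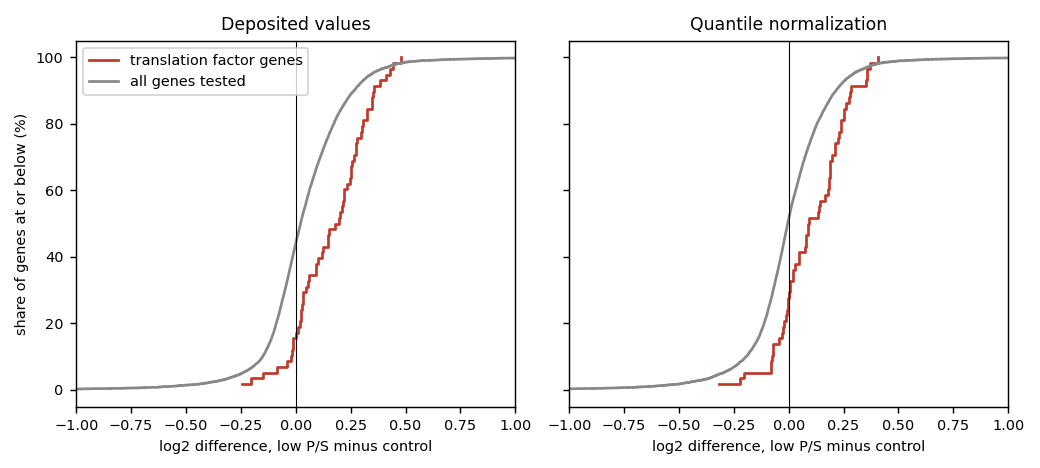
Share of genes (y axis) with a log2 difference at or below each value on the x axis, for the translation factor genes and for all 11962 genes tested, as deposited and after quantile normalization. Around the median, the curve of the translation factors lies to the right of that of all genes in both panels, with medians of 0.19 and 0.02 as deposited, and of 0.09 and -0.01 after quantile normalization.

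Counts are given apart by symbol. Genes named Eif include Eif5a, which acts in elongation, the eIF2 kinases and the eIF4E inhibitors, and genes named Eef include Eef1e1 and methyltransferases. Of the 47 tested Eif genes, 25 rose and 1 fell, with a median difference of 0.21. Of the 11 tested Eef genes, 3 rose and 1 fell, with a median of 0.04. The difference between these groups was not tested.

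RefSeq promoter windows, covering 250 bases before to 50 bases after the annotated start in GRCm38.p6, were found for 48 of the 61 genes and are compared with 27025 genes in all. The 27025 include genes that were not tested here, so their shares are not those of genes of similar brightness. The arrays do not measure promoter activity, so the sequences are given as a description. Most of the 48 genes lack each of the motifs searched. The palindromic E-box CACGTG, the core bound by basic helix-loop-helix factors such as MYC, stood in the windows of 12 of the 48 genes (25%), against 8.09% of all genes. It was present in 5 of the 22 genes with a window that rose and in 6 of the 24 tested genes with a window that did not rise. The E-boxes of 4 of the rising genes are shown with their flanks, the motif in capitals, 5′ to 3′ on the gene's strand.
Eif4a1 (chr11:69672582-69672637, minus strand): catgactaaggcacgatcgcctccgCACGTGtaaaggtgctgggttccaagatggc
Eif3k (chr7:28981902-28981957, minus strand): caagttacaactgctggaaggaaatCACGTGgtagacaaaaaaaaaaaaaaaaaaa
Eif4e (chr3:138527018-138527070, plus strand): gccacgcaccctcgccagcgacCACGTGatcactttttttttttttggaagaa
Eif5a (chr11:69920778-69920833, minus strand): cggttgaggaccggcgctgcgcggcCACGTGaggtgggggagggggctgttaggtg

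The ETS-type motif CCGGAAGT, searched on both strands like the others, stood in 9 of the 48 windows (18.8%), against 4.31% of all genes. It was present in 5 of the 22 genes that rose and in 3 of the 24 that did not. No window of these genes held overlapping motifs. The matches of 4 rising genes are shown, again with the motif in capitals.
Eef1b2 (chr1:63176807-63176850, plus strand): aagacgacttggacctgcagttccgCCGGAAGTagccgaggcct
Eif2b4 (chr5:31193120-31193163, minus strand): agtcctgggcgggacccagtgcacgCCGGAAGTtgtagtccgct
Eif3d (chr15:77970863-77970920, minus strand): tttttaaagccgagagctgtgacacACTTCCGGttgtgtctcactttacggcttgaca
Eif3l (chr15:79075162-79075219, plus strand): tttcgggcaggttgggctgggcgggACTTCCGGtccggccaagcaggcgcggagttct

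The amino acid response motif TGATGNAA, as bound by ATF4, stood in 2 of the 48 windows (4.17%), against 4.51% of all genes. A C followed by at least 4 pyrimidines exactly at the annotated start, as in mRNAs with a terminal oligopyrimidine tract that mTORC1 controls, was likewise found in 2 genes with a window, Eif2s3x and Eif3f (4.17%), against 3.01% of all genes. A run that begins beside the annotated base is missed, so this does not count all mRNAs with such a tract. In Eef1a1, for example, the annotated start is a T within a pyrimidine run, directly after a C, and was not counted. The starts of Eif2s3x and Eif3f are shown with the run in capitals, and that of Eif2s3y, the Y-linked partner of Eif2s3x, with the start base in capitals.
Eif2s3x (chrX:94212632-94212681, minus strand): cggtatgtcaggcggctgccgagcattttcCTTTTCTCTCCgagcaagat
Eif3f (chr7:108934385-108934434, plus strand): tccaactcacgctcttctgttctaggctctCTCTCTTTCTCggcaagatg
Eif2s3y (chrY:1010565-1010614, plus strand): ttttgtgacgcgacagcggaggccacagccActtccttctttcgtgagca

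Among the genes of eIF2 and initiator tRNA delivery, 3 of 5 rose and none fell, with a median difference of 0.26. Eif2s2, which encodes the beta subunit of eIF2, had the largest rise of the 58 genes. Its values had a lowest, median and highest of 619.8, 671.8 and 742.6 on the low P/S diet, against 410.2, 482.9 and 572.6 on the control diet. Every low P/S array lay above every control array. The difference was 0.48 ± 0.07 (95% interval 0.33 to 0.63, adjusted p = 0.000269), a 1.39-fold rise, and the other Eif2s2 probe set gave 0.43. Eif2a, a separate factor that can also deliver initiator tRNA, rose by 0.26 ± 0.07 (adjusted p = 0.0165). Eif2d, a further factor that binds initiator tRNA, gave 0.03 and did not pass.

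The gamma subunit of eIF2, which binds the tRNA and GTP, is encoded in mice on both sex chromosomes. Eif2s3x, the X-linked gene, had 1099, 1239 and 1431 as lowest, median and highest on the low P/S diet, against 804.2, 1012 and 1172 on the control diet. Its groups overlapped, with 4 low P/S arrays above the highest control array. The difference was 0.27 ± 0.09 (adjusted p = 0.0290). This call was lost after quantile normalization (0.19, adjusted p = 0.0554), with each gene's own variance (adjusted p = 0.0759), and without control 3, 4 or 6 or low P/S 1, 4 or 5, each in turn (adjusted p between 0.0510 and 0.0691). Eif2s3y, the Y-linked gene, had 629.7, 750.4 and 906.0 on the low P/S diet, against 650.9, 708.2 and 872.6 on the control diet. These groups overlapped almost completely, and its difference of 0.04 ± 0.09 did not pass (adjusted p = 0.744). The log2 ratio of Eif2s3x over Eif2s3y was higher on the low P/S diet by 0.23 (95% interval 0.07 to 0.39, exact two-sided permutation test over 924 arrangements, p = 0.00216, the smallest the test can give). All 6 low P/S ratios lay above the highest control ratio.

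That ratio was 1 of 7 pairs of related genes, picked with the values known, and its Benjamini-Hochberg value over the 7 was 0.0152. The other 6 pairs did not pass over the 7 in exact permutation tests. Eif4e over Eif4e2 gave a difference of differences of 0.30 (95% interval 0.05 to 0.57, exact permutation p = 0.0195, 0.0682 after adjustment). That ratio rests on the brightest Eif4e probe set, whereas the other Eif4e probe sets differed by 0.22 and -0.09 between the diets, against 0.03 for Eif4e2, so the ratio is smaller or turns its sign with them. Eif4a1 over Eif4a2 gave 0.20 (95% interval -0.0043 to 0.41, exact permutation p = 0.0563, 0.131 after adjustment). Intervals of the remaining 4 pairs were -0.11 to 0.29 for Eif1a over Eif1ax, -0.16 to 0.10 for Eif4g2 over Eif4g3, -0.16 to 0.20 for Eif4ebp1 over Eif4ebp2 and -0.20 to 0.30 for Eef1a1 over Eef1a2, so differences of up to those sizes remain possible. Cross-hybridization between related genes was not tested.

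All 5 subunit genes of eIF2B, the exchange factor that recharges eIF2, had positive differences, and 3 of them rose, with a median of 0.20. Eif2b1, the alpha subunit, had 269.2, 300.8 and 363.5 on the low P/S diet, against 202.1, 226.9 and 259.1 on the control diet. The groups did not overlap, and the difference was 0.41 ± 0.08 (adjusted p = 0.00148), a 1.33-fold rise. Eif2b3 (gamma subunit) rose by 0.30 ± 0.08 (adjusted p = 0.0149) and Eif2b4 (delta subunit) by 0.20 ± 0.05 (adjusted p = 0.00808). Eif2b5, the catalytic epsilon subunit, had 272.1, 304.6 and 334.9 on the low P/S diet, against 242.0, 277.8 and 299.7 on the control diet. Its groups overlapped, and the difference of 0.15 ± 0.06 did not pass (95% interval 0.01 to 0.28, adjusted p = 0.0944). Eif2b2, the beta subunit, also gave 0.15 ± 0.06 (adjusted p = 0.0621).

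The 4 kinases that phosphorylate eIF2 did not move in 1 direction: 1 rose, 1 fell and 2 did not pass, with a median of -0.03. Eif2ak1, which encodes the heme-regulated kinase HRI, had 403.4, 444.9 and 489.7 on the low P/S diet, against 497.6, 506.5 and 601.0 on the control diet. Every low P/S array lay below every control array, which held for 3.9% of all genes tested. Eif2ak1 fell by 0.24 ± 0.06 on the log2 scale (95% interval of the difference -0.37 to -0.12, adjusted p = 0.00647). Eif2ak4, the kinase GCN2 that responds to uncharged tRNA, went the other way, with 121.2, 123.4 and 131.1 on the low P/S diet, against 96.1, 107.7 and 113.5 on the control diet. These groups did not overlap either, and the difference was 0.22 ± 0.05 (adjusted p = 0.0041). Eif2ak3, the endoplasmic reticulum kinase PERK, had 291.6, 355.6 and 432.4 on the low P/S diet, against 323.1, 396.0 and 483.0 on the control diet. Its groups overlapped, and the difference of -0.15 ± 0.10 did not pass (95% interval -0.37 to 0.07, adjusted p = 0.294). Eif2ak2, the kinase PKR activated by double-stranded RNA, gave 0.09 ± 0.10 (adjusted p = 0.536).

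Of the 4 genes grouped here under start site recognition, 3 (Eif1ax, Eif1ad and Eif5) rose, with a median of 0.25. Whether Eif1ad acts in that step was not examined. Eif1a, which is not in that count, rose as well. Eif1ax, the X-linked gene of eIF1A, rose by 0.26 ± 0.07 (adjusted p = 0.0176), and Eif1ad, whose protein has an eIF1A-like domain, by 0.30 ± 0.07 (adjusted p = 0.00741). Eif1a, a relative of Eif1ax, had 259.2, 284.7 and 397.4 on the low P/S diet, against 204.7, 238.0 and 264.4 on the control diet. It overlapped by 1 low P/S array and rose by 0.35 ± 0.09 (adjusted p = 0.0100). Eif5, which triggers GTP hydrolysis by eIF2, rose by 0.25 ± 0.09 (adjusted p = 0.0471). The call of Eif5 was lost after quantile normalization, median centring, without the brightness filter, with each gene's own variance, and without control 3, 4, 5 or 6 or low P/S 1, 2, 4 or 5, each in turn, with adjusted p up to 0.110. Eif1b, a relative of the scanning factor eIF1, gave -0.02 and did not pass.

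The subunits of eIF3, the largest initiation factor and a scaffold on the small subunit, formed the group with the most rises. Of 11 tested subunit genes, 8 rose, none fell, and all 11 differences were positive, with a median of 0.28, although Eif3f turned to -0.08 after quantile normalization. In 6 of them, Eif3a, Eif3b, Eif3c, Eif3i, Eif3k and Eif3l, the diets did not overlap. Eif3b, a core subunit with an RNA recognition motif, had 1211, 1282 and 1482 on the low P/S diet, against 776.5, 950.8 and 1120 on the control diet. It rose by 0.44 ± 0.08 (95% interval 0.27 to 0.62, adjusted p = 0.00122), a 1.36-fold rise. Eif3a, the largest core subunit, had 1517, 1601 and 1827 on the low P/S diet, against 1025, 1296 and 1434 on the control diet, and rose by 0.35 ± 0.07 (adjusted p = 0.00243). Eif3c, a core subunit that contacts eIF1 and eIF5, had 831.9, 916.0 and 956.3 on the low P/S diet, against 589.1, 709.9 and 812.7 on the control diet. The lowest low P/S array of Eif3c was close to the highest control array, and the difference was 0.35 ± 0.07 (adjusted p = 0.00173).

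Eif3k, a peripheral subunit that pairs with eIF3l, had 653.7, 699.7 and 815.7 on the low P/S diet, against 524.2, 543.2 and 639.9 on the control diet, and rose by 0.36 ± 0.07 (adjusted p = 0.00176). Its partner Eif3l rose by 0.28 ± 0.06 (adjusted p = 0.00563). Eif3i, a subunit built of WD repeats, rose by 0.28 ± 0.05 (adjusted p = 0.00117). Eif3d, which can bind the mRNA cap, rose by 0.25 ± 0.08 (adjusted p = 0.0232). The Eif3d call was lost without low P/S 2 or 4, each in turn (adjusted p between 0.0528 and 0.0531), and with each gene's own variance (0.0590). Eif3h, a subunit of the MPN type, had 1625, 1823 and 1898 on the low P/S diet, against 1451, 1586 and 1746 on the control diet. Its difference of 0.18 ± 0.06 just passed (adjusted p = 0.0424). The call of Eif3h was lost after quantile normalization (0.08, adjusted p = 0.322), without the brightness filter, with a trended robust prior, with each gene's own variance, and without control 2, 3 or 6 or low P/S 1, 2, 3, 5 or 6, each in turn (adjusted p between 0.0530 and 0.0981). The remaining subunits did not pass: Eif3e gave 0.22 ± 0.08 (adjusted p = 0.0635), Eif3m 0.15 ± 0.06 (0.0721) and Eif3f 0.00 ± 0.05 (0.980).

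**Figure D3:**
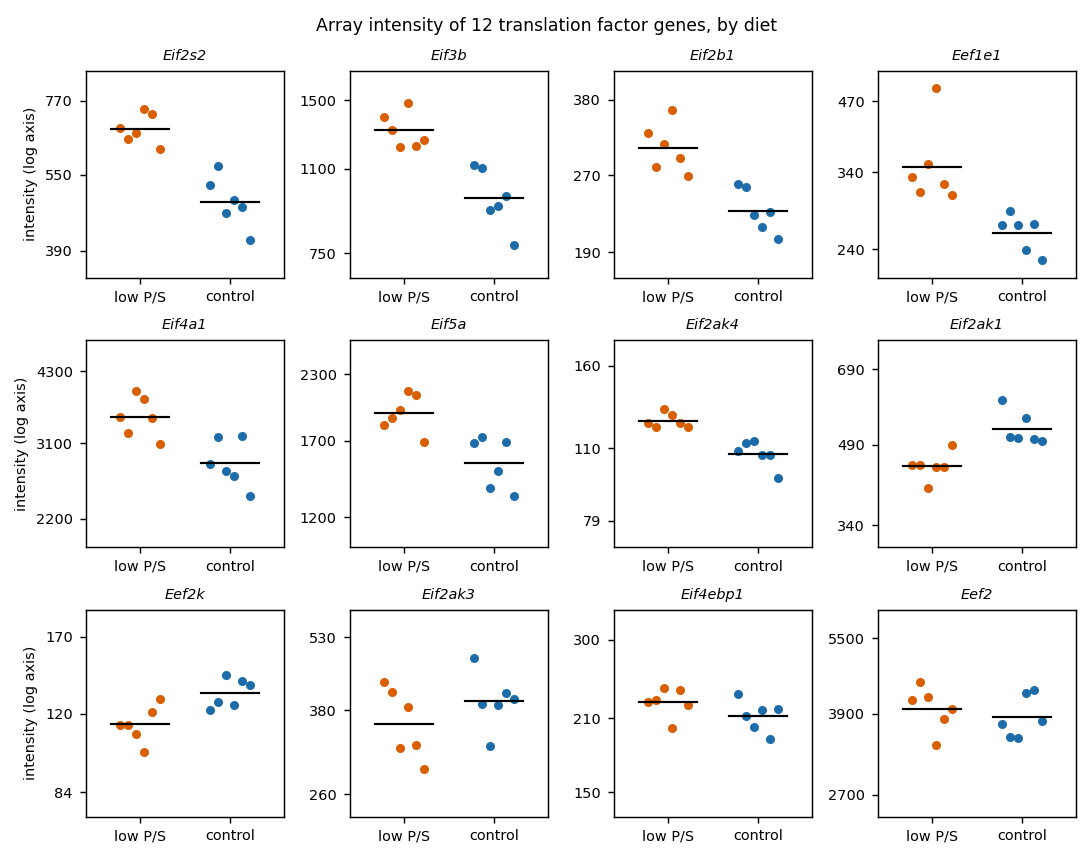
Deposited intensity (log axis) of 12 translation factor genes in each array, with low P/S arrays left of control arrays and a bar at the geometric mean of the 6 arrays. The diets do not overlap for Eif2s2, Eif3b, Eif2b1, Eef1e1, Eif2ak4 and Eif2ak1, and they overlap for the other 6 genes.

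Of the 11 tested genes of eIF4F, its helicase partners and homologues, 4 rose and none fell, with a median of 0.10. Eif4a1, the helicase that unwinds 5′ leaders, had 3096, 3486 and 3925 on the low P/S diet, against 2441, 2777 and 3198 on the control diet. In this gene 5 low P/S arrays lay above the highest control array, and the difference was 0.30 ± 0.07 (adjusted p = 0.00738). Its 3 probe sets gave 0.30, 0.29 and 0.29. Eif4g3, a scaffold that joins the cap-binding protein to the helicase, rose by 0.23 ± 0.06 (adjusted p = 0.00692). Its groups did not overlap but nearly touched, with a lowest low P/S array of 240.4 and a highest control array of 240.1. Eif4g2, a scaffold that lacks the site for eIF4E, rose by 0.21 ± 0.06 (adjusted p = 0.0184). Eif4a2, the second helicase gene, gave 0.10 ± 0.05 (adjusted p = 0.181), and the helicase cofactors Eif4h and Eif4b gave 0.19 ± 0.08 (0.0845) and 0.02 ± 0.06 (0.828). Eif4a3, the exon junction helicase, and Eif4e2, Eif4e3 and Eif4e1b, relatives of the cap-binding protein, lay between -0.08 and 0.03.

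Eif4e, the cap-binding protein, was measured by 3 probe sets that did not give the same direction. The brightest had 597.1, 672.0 and 947.8 on the low P/S diet, against 456.0, 544.7 and 652.6 on the control diet. Only 3 low P/S arrays lay above the highest control array, and the difference was 0.33 ± 0.10 (95% interval 0.10 to 0.55, adjusted p = 0.0319). The other probe sets gave 0.22 and -0.09, and their mean with the brightest gave 0.15 (adjusted p = 0.0824). The call was also lost with each gene's own variance (adjusted p = 0.0891) and without control 3, 4, 5 or 6 or low P/S 1, 4 or 5, each in turn (adjusted p between 0.0519 and 0.0775). The direction for Eif4e therefore differs between its probe sets, and which transcripts each of them detects, including any related copy of the gene, was not tested. Its place among the 28 rises rests on the brightest probe set.

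None of the 3 inhibitors and binding partners of eIF4E passed. Eif4ebp1, which sequesters eIF4E until mTORC1 phosphorylates it, had 201.1, 227.1 and 241.4 on the low P/S diet, against 191.3, 215.2 and 234.0 on the control diet. These ranges largely coincide, and the difference was 0.09 ± 0.06 (95% interval -0.03 to 0.21, adjusted p = 0.270). Eif4ebp2 gave 0.06 ± 0.07 (adjusted p = 0.526) and Eif4enif1, the transporter that takes eIF4E into the nucleus, gave -0.02.

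Eif5b, the GTPase of subunit joining, rose by 0.25 ± 0.06 (adjusted p = 0.00666). Eif6, which keeps free large subunits from joining, had 1585, 1881 and 2156 on the low P/S diet, against 1568, 1735 and 1846 on the control diet. Its diets overlapped, and the difference of 0.12 ± 0.08 did not pass (95% interval -0.04 to 0.28, adjusted p = 0.246). Eif5a had 1692, 1921 and 2131 on the low P/S diet, against 1321, 1583 and 1730 on the control diet. In Eif5a, 5 low P/S arrays lay above the highest control array, and the difference was 0.32 ± 0.08 (adjusted p = 0.00629), with 0.21 in its other probe set.

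Of the 5 tested genes of the eEF1 group, 2 rose. Eef1e1, a scaffold protein of the multi-synthetase complex that binds aminoacyl-tRNA synthetases, had 306.8, 328.0 and 498.7 on the low P/S diet, against 228.3, 268.1 and 285.1 on the control diet. Its diets did not overlap, 1 low P/S array stood well above the rest, and the difference was 0.43 ± 0.10 (adjusted p = 0.00553). Eef1b2, a subunit of the exchange factor for eEF1A, had 1140, 1235 and 1277 on the low P/S diet, against 916.2, 1077 and 1106 on the control diet. It rose by 0.22 ± 0.05 (adjusted p = 0.00755) with no overlap, a call lost after quantile normalization (0.13, adjusted p = 0.0768). Eef1a1, the main eEF1A gene, had 9433, 10831 and 12674 on the low P/S diet, against 9444, 10045 and 12704 on the control diet. These ranges coincide almost exactly, and the difference was 0.04 ± 0.08 (95% interval -0.13 to 0.21, adjusted p = 0.778). Eef1d, another exchange subunit, gave 0.12 ± 0.06 (adjusted p = 0.128), and Eef1a2, the form known from muscle and neurons, gave -0.01.

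Eef2, the translocase, had 3389, 4075 and 4517 on the low P/S diet, against 3500, 3751 and 4349 on the control diet. The diets overlapped, and its difference of 0.06 ± 0.07 did not pass (95% interval -0.10 to 0.21, adjusted p = 0.608). Eef2k, the kinase that inhibits eEF2, had 101.1, 114.0 and 128.1 on the low P/S diet, against 122.2, 131.4 and 143.1 on the control diet. In this gene 5 low P/S arrays lay below the lowest control array. Eef2k fell by 0.21 ± 0.06 on the log2 scale (95% interval of the difference -0.34 to -0.08, adjusted p = 0.0210), and its other probe set gave -0.11. The call was lost without control 3 (adjusted p = 0.0508) and without low P/S 4 (0.0512).

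Of the 4 tested methyltransferases of elongation factors, Eef1akmt1, which methylates a lysine of eEF1A, rose. It had 173.1, 211.6 and 225.9 on the low P/S diet, against 139.7, 156.4 and 168.1 on the control diet, with no overlap. The difference was 0.38 ± 0.07 (adjusted p = 0.00114), a 1.30-fold rise. Eef1akmt2, Eef2kmt, which acts on eEF2, and Eef1aknmt, which acts on eEF1A, lay between -0.04 and 0.03 and did not pass.

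Many of the rising genes had their highest and lowest values in the same arrays of each diet. Of the 28, control 6 was the lowest control array in 23 and control 3 in 5, and control 1 and control 2 were each the highest in 12. Among low P/S arrays, low P/S 4 was the highest in 16 and low P/S 6 the lowest in 13. The mean log2 value of the 58 genes was 9.00, 8.97, 8.94, 9.05, 8.96 and 8.91 in low P/S arrays 1 to 6, against 8.89, 8.89, 8.78, 8.81, 8.83 and 8.67 in control arrays 1 to 6. Each low P/S mean lay above every control mean. The mean over all genes tested was between 8.01 and 8.08 in low P/S arrays and between 7.97 and 8.05 in control arrays. Control 6 was lowest in that mean too, and low P/S 4 and control 1 were the highest of their diets. Among low P/S arrays the lowest in that mean was low P/S 3, not low P/S 6. Leaving out single arrays gave 24 to 31 rising genes.

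**Figure D4:**
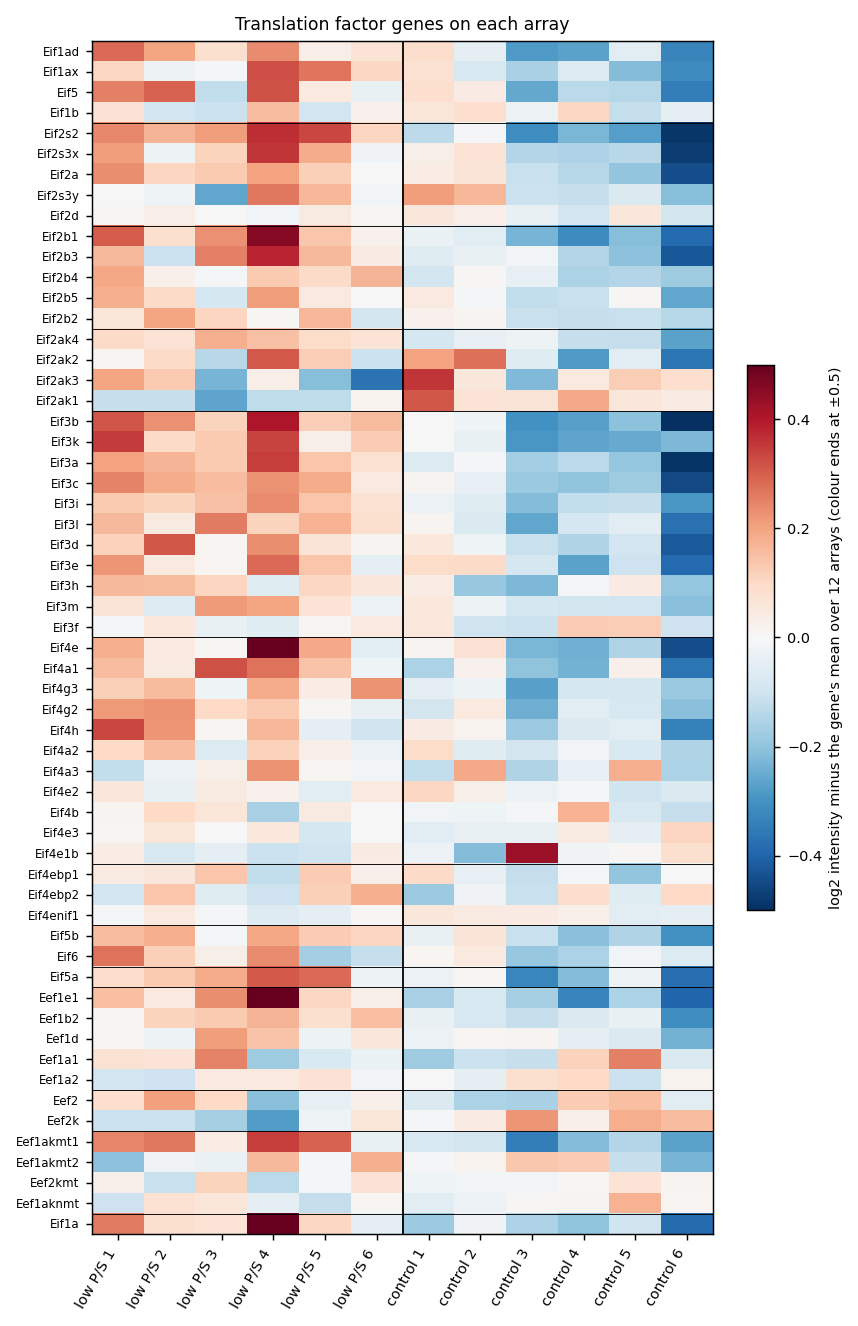
Log2 intensity minus the gene's mean over the 12 arrays (colour, ends at ±0.5) for the 58 translation factor genes, with low P/S arrays left of control arrays and lines between the role groups. Most genes grouped under start recognition, eIF2, eIF2B and eIF3 have a higher average in low P/S than in control arrays. In several of them, such as Eif2s3x, single arrays lie on the other side of the gene's mean. Control 6 is the lowest control array in 23 of the 28 rising genes.

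As a description, correlations between pairs of genes were taken after taking out the diet means. The median correlation was 0.59 within eIF3, 0.69 among the genes of eIF2 and initiator tRNA delivery and 0.42 within eIF2B. It was 0.11 within the eIF4F group, 0.10 within the eEF1 group, 0.23 among the eIF2 kinases and 0.28 over all 58 genes, against 0.036 over all genes tested. These values rest on 12 arrays that share their RNA sample and scaling across genes. Likeness by the same measure was ranked among the 58 genes only, not among all genes tested. Within the 58, the genes most like Eif2s2 were Eif2s3x (0.94), Eif3i (0.89) and Eif3a (0.89). Those most like Eif3b were Eif3a (0.91), Eif2b5 (0.91) and Eif3e (0.90). Eef1a1 was most like Eef2 (0.85), and Eef2 was next most like Eif3h (0.79), Eif3f (0.73) and Eef1aknmt (0.61).

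Other genes of translation were counted from lists chosen with results of these data known. Of 67 tested, 22 rose and 1 fell, with a median difference of 0.12, beside 17.8% that rose and 7.87% that fell over all genes tested. The lists with a single rise lie below that share. In translation termination and ribosome recycling, 5 of 9 rose. Abce1, the ATPase that splits ribosomes after termination, had values of 979 to 1377 on the low P/S diet, against 556 to 881 on the control diet, and rose by 0.57 ± 0.10 (adjusted p = 0.00114). Mcts2, of the density-regulated recycling pathway, rose by 0.37 ± 0.08 (adjusted p = 0.00337), and Gspt1, the release factor eRF3a, by 0.33 ± 0.08 (adjusted p = 0.00688).

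Mitochondrial translation factors had the largest share of rises, 7 of 9, with a median of 0.28. Tufm, the mitochondrial counterpart of eEF1A, had 871 to 937 on the low P/S diet, against 591 to 765 on the control diet, and rose by 0.41 ± 0.06 (adjusted p = 0.000195). Of the mitochondrial initiation factors, Mtif2 rose by 0.36 ± 0.07 (adjusted p = 0.00164) and Mtif3 by 0.30 ± 0.06 (adjusted p = 0.00161). Of 5 RNA helicases of initiation, 3 rose: Dhx9 by 0.29 ± 0.07, Dhx33 by 0.22 ± 0.06 and Dhx29, which helps on structured leaders, by 0.22 ± 0.06. Of 7 genes of hypusine and diphthamide synthesis, which modify eIF5A and eEF2, Dph3 rose by 0.18 ± 0.05 and Dph6 by 0.24 ± 0.07.

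The remaining lists held at most 2 rises each. Of 11 genes of mTORC1 and MNK signalling to eIF4F, Mknk2 rose by 0.23 ± 0.08 (adjusted p = 0.0461) and Mknk1 fell by 0.19 ± 0.05 (adjusted p = 0.0159), both kinases of eIF4E. Of 9 partners of the integrated stress response, Atf4, the transcription factor translated when eIF2 is phosphorylated, rose by 0.30 ± 0.07 (adjusted p = 0.00598), and Dnajc3, an inhibitor of PERK, by 0.24 ± 0.07 (adjusted p = 0.0232). Of 9 poly(A)-binding proteins and partners, Larp4 rose by 0.45 ± 0.08 (adjusted p = 0.00107). Of 8 genes of selenocysteine elongation, Secisbp2l rose by 0.42 ± 0.09 (adjusted p = 0.00404).

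Markers of cell types moved with the diet as well, and their part in these results was not tested. In bulk tissue, fewer cells of a type and less RNA per cell cannot be told apart. Of 6 enterocyte markers 3 fell, with a summed intensity of 33630 to 38250 on the low P/S diet against 39130 to 51009 on the control diet, so the labelled tissue carried its defining markers in every array. All 4 tested macrophage markers rose, and the sum with the dim Adgre1 was 767 to 1013 on the low P/S diet against 614 to 736 on the control diet. Of 5 tested crypt stem and cycling markers, 2 rose, namely Mki67 and Top2a. The stem cell markers Lgr5 (-0.14) and Olfm4 (-0.004) did not pass, nor did Pcna (0.34). The sum of this list with the dim Ascl2 was 4100 to 5760 on the low P/S diet against 3342 to 5245 on the control diet. Of 5 goblet markers 2 rose, with sums of 15133 to 18237 on the low P/S diet against 11015 to 16186 on the control diet. Jchain, 1 of 2 tested B and plasma cell markers, rose, 2 of 3 T cell markers fell, 1 of 3 adipose markers fell, and none of the 6 smooth muscle, 5 Paneth, 2 tested pancreas and 1 tested erythrocyte markers passed.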

How the data were processed

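Deposited intensity values on a linear scale were used, 1 per probe set and array, for 34760 probe sets and 12 arrays (array medians 91.9 to 99.5). Per the labels, 500 ng of total RNA per sample was labelled without removal of ribosomal RNA; how the authors summarized and normalized the arrays is not stated in the sources used. Probe sets naming 1 symbol in the platform annotation (21640) were kept, and the brightest per gene was used (8 of the 61 genes had several). Genes under the 40th percentile of mean log2 intensity were left out, which left 11962. The diets were compared with limma 3.58.1 in R 4.3.3 (lmFit and eBayes, two-sided tests). Diet was the sole factor, and Benjamini-Hochberg adjustment ran over all genes tested. Ratios of related genes were compared by exact permutation tests in Python 3.11.15. The fit was tested on simulated data. Values per diet are given for the 8 passing genes with the largest rise, those that fell and 14 genes named whatever their values. Some of the 14 were not analysed here. Of other translation lists, up to 3 passing genes of smallest p per direction are named. Values per diet of Eif1a, Eif2s3x, Eif2s3y, Eif3h and Eef1b2 were added after they were seen. Members and lists were chosen with earlier results of these data known. Alternatives were quantile normalization, median centring, no filter, a 60th percentile filter, the mean of probe sets, a pseudocount of 16, a trended robust prior, each gene's own variance, array weights, a replicate block and leaving out arrays.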

Additional observations from a re-analysis of the deposited data

Results flagged for a closer look

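Within each diet, 116 sets of 6 arrays were examined for an array whose gap to its nearest neighbour exceeded 0.625 of the range, and 6 were found, near the 1 in 20 that chance gives. Low P/S 4 was the highest of its diet for Eef1e1, at 499 against 353 in the next array. Without it the Eef1e1 difference was 0.33 (adjusted p = 0.00234). The same array was the highest for Eif4e, at 948 against 709 in the next array, and without it the Eif4e difference was 0.24 (adjusted p = 0.0577). It was the lowest for Eif4b, at 744 against 835. Control 6 was the lowest of its diet for Eef1b2, at 916 against 1049, and for Eef1d, at 183 against 205. Control 5 was the highest for Eef1aknmt, at 123.5 against 110.5.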

How the results depend on the processing

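Of 28 rising genes, 20 passed in all 23 alternatives, and Eif2ak4 and Eif2b4 in all but the 60th percentile filter, which leaves them out; the exceptions were Eif3h, Eif5, Eif4e, Eif2s3x, Eif3d and Eef1b2. The number rising was 23 to 31 over the alternatives, with 24 to 31 without single arrays. It was 33 without controls 1 and 2, which are the highest control arrays for most rising genes, so that leaving them out favours rises. The number falling was 1 with the 60th percentile filter, which removes Eef2k, and 1 to 2 without single arrays. The median difference was 0.090 after quantile normalization, which moved the share of rises among all passing genes to 53.5%, against 69.4% as deposited, and 0.15 to 0.20 without single arrays. The causes were not tested.

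Differences near 0, none of which passed as deposited, changed sign in 13 genes. Quantile normalization gave -0.043 for Eif2s3y, -0.077 for Eif3f, -0.019 for Eif4a3, -0.073 for Eif4b, -0.030 for Eif4e2, -0.0019 for Eif4e3 and -0.0053 for Eif4ebp2. Median centring gave 0.012 for Eef1a2, 0.011 for Eef2kmt, 0.0084 for Eif1b and 0.0027 for Eif4enif1. Array weights gave -0.00059 for Eef1a1, -0.017 for Eef1akmt2, -0.014 for Eif3f and -0.0074 for Eif4a3. Without controls 1 and 2, Eef1a1 gave -0.027, Eif1b 0.015, Eif3f -0.0095 and Eif4e3 -0.012. Without single arrays the ranges were -0.011 to 0.089 for Eef1a1, -0.037 to 0.0054 for Eef1a2, -0.019 to 0.069 for Eef1akmt2, -0.038 to 0.011 for Eef2kmt, -0.050 to 0.0021 for Eif1b, -0.0039 to 0.10 for Eif2s3y, -0.019 to 0.028 for Eif3f, -0.0080 to 0.074 for Eif4a3, -0.0010 to 0.057 for Eif4b and -0.00085 to 0.032 for Eif4e3.

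Arrays share replicate numbers between diets, and the correlations of same-numbered arrays were mixed (-0.11 to 0.42, 3 of 6 over 0.1; 2 of 6 matched best with their own number), so the numbers were not used as pairs. With the number as a replicate block, limma gave 31 rises, 2 falls and a median of 0.19, with Eif2b2, Eif3e and Eif4h added to the rises.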
